A study of Mus musculus with 9 samples.

Results

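A set of 10 genes of metallothionein, zinc and copper handling was followed in the mouse hippocampus, namely Mt1, Mt2, Mt3, Slc30a1, Slc30a3, Slc31a1, Atox1, Ccs, Atp7a and Sod1. These 10 of 54532 annotated genes were picked by name, with earlier results of the same libraries known, so their fold changes and p-values are descriptions and not independent tests. Total RNA of the hippocampus was sequenced in 9 libraries from mice in 3 groups of 3: a standard diet (Con), a high-methionine diet for 8 weeks (HMD), and the same 8 weeks of diet followed by 2.5% (w/v) betaine in drinking water for 2 weeks (Bet+HMD). The labels list no group kept for those 2 weeks without betaine, so betaine and the added time cannot be told apart. No group carries an engineered allele. The strain field reads C57BL/6 for Con and HMD, and C57BL/6, C57BL/7 and C57BL/8 for the 3 Bet+HMD libraries in turn. The labels call the mice male and 6 to 8 weeks old at purchase, whereas the study's methods describe females, and neither source says whether the diet went on during betaine. Whole hippocampus was used, so fewer cells of a type and less RNA per cell cannot be told apart. A number shared between the replicates of different groups does not mark a shared animal, and the p-values measure the spread between these libraries.

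The authors deposited FPKM, which are fragments per gene corrected for its length and for the depth of the library, in an earlier table of the Con and HMD libraries and a later table of all 9. The same Con and HMD libraries differ slightly between the tables, and every Bet+HMD library is in the later one only, so betaine and any difference in when or how those libraries were made cannot be told apart. Between 16449388 and 18566712 reads were assigned to genes in each library of the earlier table, and between 16031464 and 18291952 in the later one. The diet comparison, HMD against Con, was read from the earlier table, and both comparisons of Bet+HMD from the later table. Because the last 2 comparisons share the Bet+HMD libraries, their values are given side by side. Differences are log2 fold changes of FPKM + 1 from limma with their standard error (SE), and a gene is said to have fallen or risen where p, adjusted by Benjamini-Hochberg over all genes with a mean of at least 1 FPKM, was under 0.05.

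Metallothioneins are small, cysteine-rich proteins that bind zinc and copper. Mt1 and Mt2 are made mainly by glial cells in brain and are switched on by zinc through the transcription factor MTF1, and by glucocorticoids, whereas Mt3 is the form found mainly in the nervous system and responds little to metal. Slc30a1 (ZnT1) carries zinc out of the cell and is another target of MTF1, while Slc30a3 (ZnT3) fills synaptic vesicles with zinc, above all in the mossy fibres of the hippocampus. Copper enters the cell through Slc31a1 (CTR1), is passed by the chaperone Atox1 to the pump Atp7a and by the chaperone Ccs to the superoxide dismutase Sod1, an enzyme that also binds zinc.

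The start regions of 5 of these genes are shown because MTF1 binds a metal response element whose core can be searched for directly. Each is the 300 bases from 250 before to 50 after the gene's RefSeq start on its own strand (build GRCm38.p6), and capitals mark each TGCACNC or TGCGCNC core, searched on both strands. Mt1 lies at chr8:94178839-94179138 on the plus strand, Mt2 at chr8:94172368-94172667 (plus), Mt3 at chr8:94152357-94152656 (plus), Slc30a1 at chr1:191906531-191906830 (plus) and Atox1 at chr11:55461159-55461458 (minus).
Mt1: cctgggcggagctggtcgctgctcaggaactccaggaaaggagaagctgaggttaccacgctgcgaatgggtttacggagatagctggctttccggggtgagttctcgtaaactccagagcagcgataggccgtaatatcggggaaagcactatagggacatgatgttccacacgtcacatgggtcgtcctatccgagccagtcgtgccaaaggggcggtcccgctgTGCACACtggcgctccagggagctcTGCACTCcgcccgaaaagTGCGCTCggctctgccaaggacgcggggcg
Mt2: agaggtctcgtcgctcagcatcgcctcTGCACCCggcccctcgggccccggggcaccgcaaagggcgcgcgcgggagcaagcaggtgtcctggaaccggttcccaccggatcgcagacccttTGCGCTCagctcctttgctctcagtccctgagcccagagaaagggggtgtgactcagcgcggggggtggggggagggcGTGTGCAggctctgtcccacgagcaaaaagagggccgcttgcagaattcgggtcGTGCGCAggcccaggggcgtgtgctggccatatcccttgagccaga
Mt3: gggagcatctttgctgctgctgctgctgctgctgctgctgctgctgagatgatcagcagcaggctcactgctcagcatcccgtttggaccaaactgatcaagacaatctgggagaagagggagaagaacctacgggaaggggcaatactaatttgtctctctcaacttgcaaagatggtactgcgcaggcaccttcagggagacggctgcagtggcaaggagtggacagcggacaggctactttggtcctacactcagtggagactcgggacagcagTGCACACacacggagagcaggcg
Slc30a1: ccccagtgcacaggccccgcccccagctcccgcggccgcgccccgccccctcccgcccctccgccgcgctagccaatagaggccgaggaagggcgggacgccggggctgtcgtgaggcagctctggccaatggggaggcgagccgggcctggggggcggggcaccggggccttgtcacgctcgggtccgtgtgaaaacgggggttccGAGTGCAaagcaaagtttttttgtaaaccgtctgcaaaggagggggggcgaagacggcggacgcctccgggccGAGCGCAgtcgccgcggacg
Atox1: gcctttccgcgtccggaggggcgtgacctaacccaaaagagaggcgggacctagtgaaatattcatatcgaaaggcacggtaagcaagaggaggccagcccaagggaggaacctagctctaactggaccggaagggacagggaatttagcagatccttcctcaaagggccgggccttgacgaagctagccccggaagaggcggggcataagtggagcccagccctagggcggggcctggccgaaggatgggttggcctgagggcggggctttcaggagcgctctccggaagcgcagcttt
Mt2 held 4 cores, Mt1 held 3, Slc30a1 held 2 and Mt3 held 1, while Atox1 held none. Of 32851 RefSeq start regions of this length, 25.7% held at least 1 core, 7.11% at least 2, 1.97% at least 3 and 0.517% at least 4. Among the other members, Atp7a held 2, 1 of the start regions of Slc30a3 held 1, and Slc31a1 and Sod1 held none. The 9 members with an entry were searched, and Ccs had none. A match describes the letters in this window and does not show that a protein binds there.

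The 3 metallothionein genes sit side by side on the plus strand of chromosome 8, in the order Mt3 (94152607 to 94154146), Mt2 (94172664 to 94173568) and Mt1 (94179082 to 94180327), with 5514 bases between Mt2 and Mt1 and 18518 between Mt3 and Mt2. The neighbours did not share a pattern. Mt1 and Mt2 were lowest in all 3 Bet+HMD libraries, and Mt3 was not.

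Mt1 was the most abundant member in FPKM in all but 1 library. In the later table it stood at 203.3, 215.1 and 198.0 FPKM in Con, at 261.4, 238.6 and 228.4 in HMD, and at 128.2, 120.1 and 86.6 in Bet+HMD. The lowest HMD library lay above the highest Con library, and the highest Bet+HMD library lay far below both groups. The Con libraries averaged 205.5 ± 8.75 FPKM, the HMD libraries 242.8 ± 16.9 and the Bet+HMD libraries 111.6 ± 22.1 (SD, n = 3 each). Mt1 fell in Bet+HMD by 1.13 on the log2 scale against HMD (SE 0.148, adjusted p = 0.000927) and by 0.89 against Con (SE 0.154, adjusted p = 0.00472). Against Con the log2 fold change of Mt1 was -0.55 after length-class centring (adjusted p = 0.0316) and -0.47 after quantile normalization (adjusted p = 0.0423).

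Under the diet alone Mt1 was higher in each of the 3 HMD libraries than in any Con library. In the earlier table it stood at 199.3, 212.3 and 193.0 FPKM in Con and at 261.8, 236.0 and 228.8 in HMD. Its fitted difference of 0.26 (log2, SE 0.112) had an unadjusted limma p of 0.0490 and an adjusted p of 0.980. It was the only member whose HMD and Con libraries did not overlap, a pattern that 9.37% of the 12989 genes tested shared.

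Mt2, at far lower FPKM, stood apart after betaine as well. Its FPKM were 12.1, 14.1 and 7.66 in Con, 13.8, 13.4 and 11.5 in HMD, and 2.94, 2.79 and 1.17 in Bet+HMD. All 3 Bet+HMD libraries lay below every other library, although they rested on only 30, 29 and 12 reads for this gene. Mt2 fell by 2.12 on the log2 scale against HMD (SE 0.224, adjusted p = 0.000404) and by 1.91 against Con (SE 0.288, adjusted p = 0.00285). Under the diet alone its libraries overlapped, and HMD against Con gave 0.25 (SE 0.207, adjusted p = 0.980). An antisense gene, Gm45774, overlaps Mt2 on the other strand, and whether reads were counted by strand is not given in the sources used here.

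The ratio of Mt1 to Mt2 FPKM overlapped between Con and HMD and was higher in Bet+HMD, where it rests on the few Mt2 reads. It lay between 15.3 and 25.9 in Con, between 17.8 and 19.9 in HMD and between 43.1 and 73.9 in Bet+HMD.

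Mt3 gave 65.0, 57.4 and 204.3 FPKM in Con, 60.4, 68.8 and 60.5 in HMD, and 65.7, 74.6 and 63.3 in Bet+HMD. A single library, Con replicate 3, stood far above the other 8, which overlapped across groups. Mt3 did not pass the test in Bet+HMD against HMD, with a log2 fold change of 0.10 and a 95% interval of -0.11 to 0.31. It did pass under 4 alternatives, with 0.30 after rescaling to TPM, 0.45 after quantile normalization, and 0.36 after centring within classes of gene length, both with no block and with replicate numbers blocked. Against Con the log2 fold change was -0.43 (SE 0.449), and it became 0.15 without Con replicate 3. For HMD against Con it was -0.46 (SE 0.415), and 0.091 without that library.

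**Figure D1:**
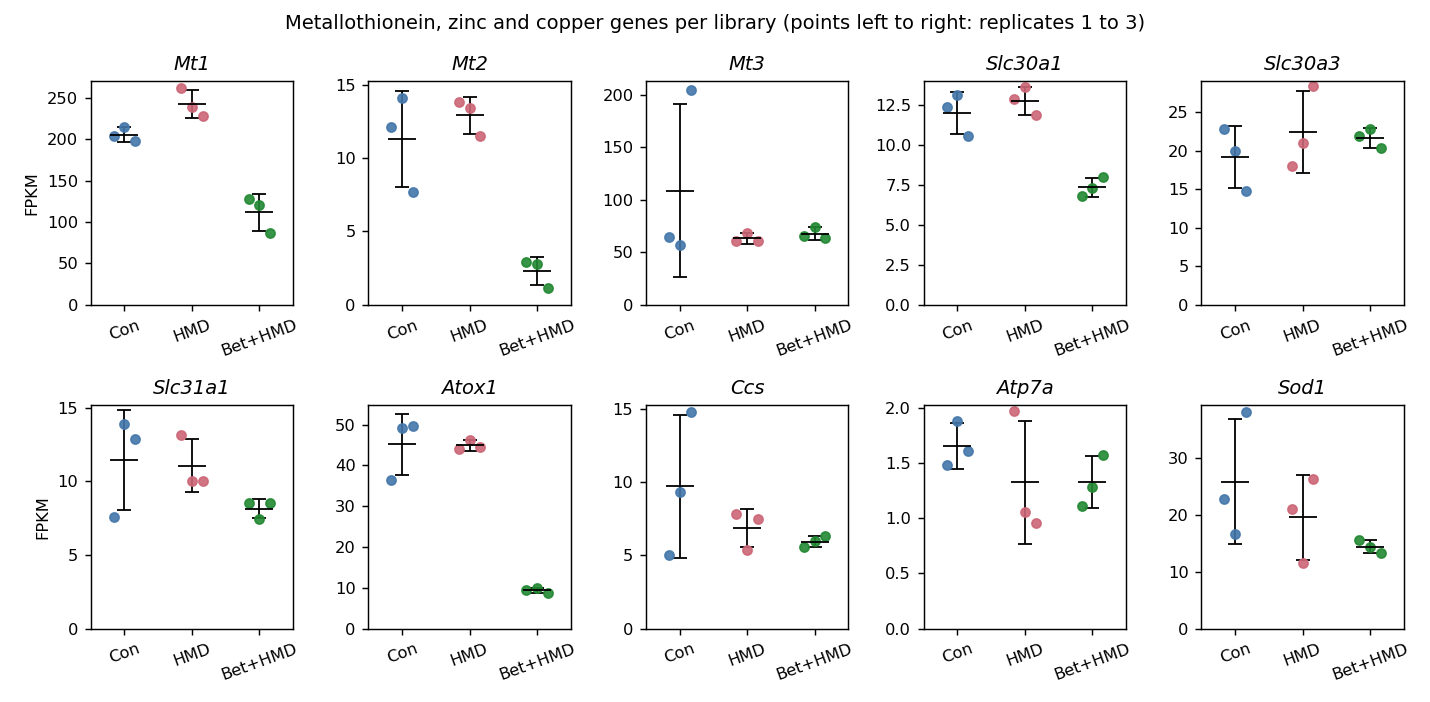
FPKM of each of the 10 genes in the 9 libraries of the later table, 1 panel per gene, with 1 point per library, a line at each group's mean and error bars of 1 SD. The 3 Bet+HMD libraries lie below all others for Mt1, Mt2, Slc30a1 and Atox1, and Con replicate 3 stands alone for Mt3 at 204.3 FPKM.

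Slc30a1, the zinc exporter at the cell surface (chr1:191906767-191913247, plus strand), was lower in Bet+HMD as well. Its FPKM were 12.4, 13.1 and 10.6 in Con, 12.9, 13.6 and 11.9 in HMD, and 6.82, 7.30 and 8.00 in Bet+HMD. Con and HMD libraries overlapped, and all 3 Bet+HMD libraries lay below them. The log2 fold change was -0.72 against HMD (SE 0.0859, adjusted p = 0.000643) and -0.64 against Con (SE 0.105, adjusted p = 0.00398), and HMD against Con gave 0.082 (SE 0.118). An antisense gene, 1700034H15Rik, overlaps it.

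Slc30a3, the vesicle zinc transporter (chr5:31086106-31108237, minus strand), showed no such shift. Its FPKM were 22.8, 19.99 and 14.8 in Con, 18.1, 21.0 and 28.4 in HMD, and 22.0, 22.8 and 20.3 in Bet+HMD. The groups overlapped throughout, with the Bet+HMD libraries inside the range of the HMD libraries. Bet+HMD against HMD gave a log2 fold change of -0.026 with a 95% interval of -0.39 to 0.33, a direction that turned under rescaling to TPM (0.17), quantile normalization (0.16), length-class centring (0.11) and voom on the recovered reads (0.064). The values were 0.19 (SE 0.155) against Con and 0.22 (SE 0.205) for HMD against Con. As a ratio, Slc30a3 to Slc30a1 was 1.39 to 1.84 in Con, 1.40 to 2.39 in HMD and 2.54 to 3.22 in Bet+HMD.

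Among the copper genes, Atox1, the chaperone that hands copper to Atp7a (chr11:55446641-55461239, minus strand), differed most. It stood at 36.5, 49.3 and 49.7 FPKM in Con, at 43.9, 46.3 and 44.4 in HMD, and at 9.47, 9.93 and 8.71 in Bet+HMD. The Con and HMD libraries overlapped, while the Bet+HMD libraries, with 82 to 95 reads each, were all under 10 FPKM. Atox1 fell by 2.15 on the log2 scale against HMD (SE 0.0724, adjusted p = 1.11e-05) and by 2.14 against Con (SE 0.135, adjusted p = 0.000210). HMD against Con gave -0.0074 (SE 0.142), a direction that turned under 9 of 19 alternatives.

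Ccs, the chaperone that loads copper into Sod1 (chr19:4825366-4839322, minus strand), did not follow Atox1. Its FPKM were 5.02, 9.28 and 14.8 in Con, 7.79, 5.37 and 7.45 in HMD, and 5.55, 5.94 and 6.30 in Bet+HMD. Con replicate 3 was the highest library, and the Bet+HMD libraries lay inside the range of the HMD libraries. Neither -0.17 (SE 0.131) against HMD, a direction that turned under TPM and length-class centring, nor -0.52 (SE 0.316) against Con passed the test. Without HMD replicate 2 the first became -0.32 (adjusted p = 0.0162), and without Con replicate 1 the second became -0.88 (adjusted p = 0.0211). HMD against Con gave -0.34 (SE 0.322), and with 1 library left out it ran from -0.69 without Con replicate 1 to -0.024 without Con replicate 3. The ratio of Atox1 to Ccs was 3.37 to 7.27 in Con, 5.64 to 8.62 in HMD and 1.38 to 1.70 in Bet+HMD.

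Slc31a1, the copper importer (chr4:62360727-62391769, plus strand), gave 7.60, 13.9 and 12.9 FPKM in Con, 13.2, 10.002 and 10.04 in HMD, and 8.50, 7.41 and 8.54 in Bet+HMD. The Bet+HMD libraries lay below all HMD libraries and overlapped Con through Con replicate 1. Slc31a1 fell against HMD by 0.39 (SE 0.118, adjusted p = 0.0291). That call was lost under 7 of 18 alternatives, with adjusted p from 0.0542 to 0.177: without a filter on low values, with TPM, in a fit of all 3 groups, and without HMD replicate 1 or any 1 Bet+HMD replicate. Against Con it did not pass, with -0.41 (SE 0.207), except without Con replicate 1, where it was -0.65 (adjusted p = 0.00751). HMD against Con gave -0.0090 (SE 0.221), which turned in direction under 6 of 19 alternatives. Cdc26 overlaps Slc31a1 on the other strand.

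Atp7a, the copper-exporting pump (chrX:106027276-106124926, plus strand), was the least abundant member except in Bet+HMD replicate 3, where Mt2 was lower. It stood at 1.48, 1.89 and 1.61 FPKM in Con, at 1.97, 1.05 and 0.956 in HMD, and at 1.11, 1.29 and 1.58 in Bet+HMD. The libraries of the 3 groups overlapped. The log2 fold change was 0.021 against HMD (95% interval -0.42 to 0.46), turning to -0.27 under quantile normalization and -0.027 under length-class centring. It was -0.19 (SE 0.125) against Con, and -0.22 (SE 0.188) for HMD against Con. The value against Con passed under quantile normalization, with -0.46 (adjusted p = 0.0399).

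Sod1, the cytosolic superoxide dismutase (chr16:90220754-90226329, plus strand), gave 22.8, 16.8 and 38.1 FPKM in Con, 21.0, 11.5 and 26.3 in HMD, and 15.6, 14.4 and 13.3 in Bet+HMD. Every Bet+HMD library was below every Con library, and all 3 lay within the range of the HMD libraries. The log2 fold change was -0.73 (SE 0.267, adjusted p = 0.0683) against Con and -0.35 (SE 0.260, adjusted p = 0.304) against HMD. Leaving out 1 library changed both calls, to -0.99 (adjusted p = 0.0157) without Con replicate 2 and to -0.67 (adjusted p = 0.00460) without HMD replicate 2. HMD against Con gave -0.34 (SE 0.338), and with 1 library left out it ran from -0.60 without Con replicate 2 to -0.039 without Con replicate 3. The gene length behind the Sod1 FPKM, 3970 bases, covers both annotated transcripts, of which the coding one has 641 bases, so its FPKM is lower than it would be per coding transcript. Scaf4 overlaps it on the other strand.

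**Figure D2:**
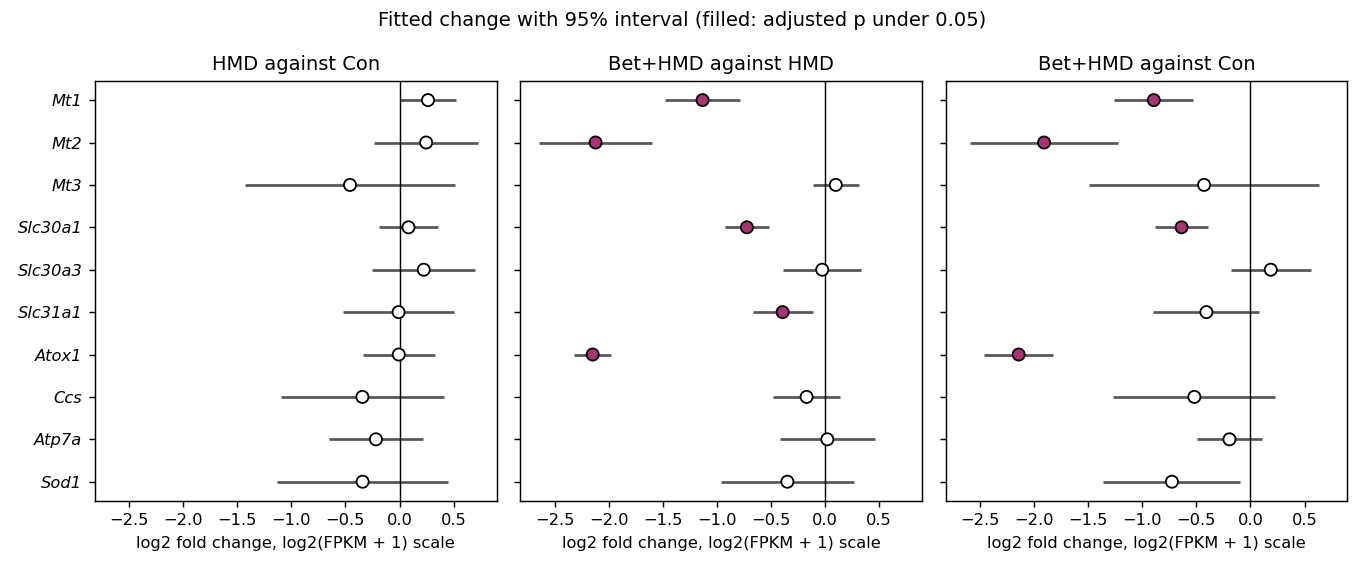
Log2 fold change on the FPKM + 1 scale (horizontal axis) of the 10 genes in the 3 comparisons, with 95% intervals from limma. Filled points have adjusted p under 0.05: none in HMD against Con, 5 in Bet+HMD against HMD and 4 in Bet+HMD against Con, all of them lower.

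All 10 genes passed the filter in each comparison. In HMD against Con none had an adjusted p under 0.05, against 0% of the 12989 genes tested, and 1, Mt1, had an unadjusted p under 0.05, against 4.56%. In Bet+HMD against HMD, 5 of 10 fell and none rose, against 25.5% lower and 22.8% higher of 13672 genes, 48.3% in all. The same 5 had an unadjusted p under 0.05 and libraries that did not overlap, as did 55.8% and 60.1% of all genes. Against Con, 4 of 10 fell and none rose, where 20.4% of 13643 genes were lower and 19.4% higher, 39.7% in all. With Sod1 added, 5 had an unadjusted p under 0.05 and libraries that did not overlap, against 49.6% and 55.1% of all genes. Mt1, Mt2 and Atox1 had a log2 fold change of -1 or less against HMD, with an adjusted p under 0.05, as did 2.79% of all genes tested, and Mt2 and Atox1 did so against Con, as did 2.97%. The median log2 fold change over the members was -0.0082 for HMD against Con, -0.37 for Bet+HMD against HMD and -0.58 for Bet+HMD against Con. Over all genes tested it was -0.0038, -0.025 and -0.039. Nothing follows from these counts about the group of genes, because its members were picked with the results known.

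The Bet+HMD libraries also differed from the others by gene length. Protein-coding genes of 501 to 1000 bases had a median log2 fold change of -0.39 against HMD, those of 1001 to 2000 bases -0.35, and those over 8000 bases 0.086, while the shortest class, of 39 genes below 501 bases, had 0.56. Ribosomal protein genes, which are short, had a median of -1.05, and 58 of the 74 tested fell, beside 25.5% of all genes. Atox1 and Mt2 belong to the class of 501 to 1000 bases, whose 10th percentile was -1.53, and both were below it. Mt1 lay below the 10th percentile of its class of 1001 to 2000 bases, -1.03, and Slc30a1 below that of the class of 4001 to 8000 bases, -0.46. Mt3 and Ccs, also of 1001 to 2000 bases, lay above their class median of -0.35. Classes use the deposited gene length, which for Mt1 is 1246 bases, longer than its coding transcripts of 549 to 1085 bases. The Mt1 fold change of -1.13 was above the 10th percentile of the class of 501 to 1000 bases, -1.53. For Mt3 the deposited length is 1066 bases, beside coding transcripts of 440 to 536. Its log2 fold change of 0.10 was above the median of the class of 501 to 1000 bases and below that of the shortest class, 0.56. After centring each library within 20 classes of gene length, the log2 fold changes against HMD were -0.87 for Mt1, -2.05 for Mt2, -2.07 for Atox1 and -0.68 for Slc30a1. Con replicate 3, the library high in Mt3, Sod1 and Ccs, was also the one with the highest short genes: in the earlier table, genes of 501 to 1000 bases had a median log2 ratio of 0.43 to the mean of the 6 libraries, against -0.27 to 0.044 in the other 5. The part of gene length in these results was not tested beyond that centring.

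**Figure D3:**
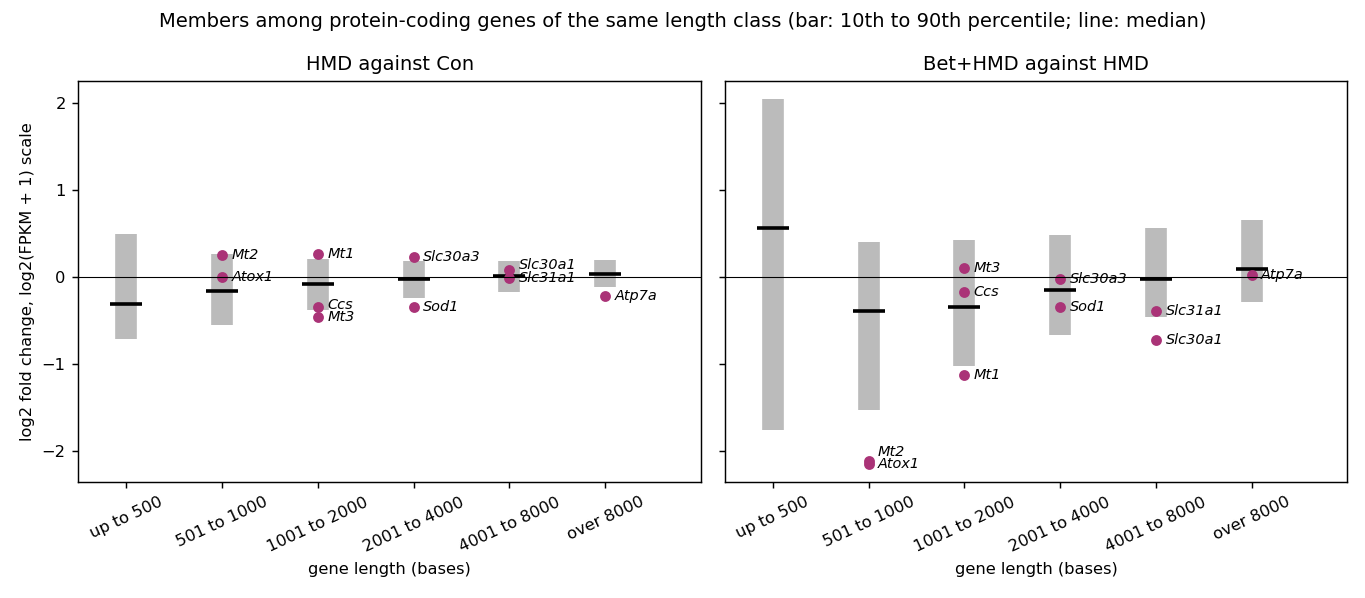
Median log2 fold change of protein-coding genes by gene length class (horizontal axis, bases) in HMD against Con (left) and Bet+HMD against HMD (right), with bars from the 10th to the 90th percentile and the 10 genes as points on the log2(FPKM + 1) scale. In the right panel Mt1, Mt2, Atox1 and Slc30a1 lie below the bar of the class set by their deposited gene length.

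Another scaling moved the middle of all genes. Rescaling to TPM set the median of all genes at 0.16 in Bet+HMD against HMD and raised the share of higher genes among those called from 47.2% to 69.5%. In Bet+HMD against Con the same step gave a median of 0.17 and a share of 73.5% in place of 48.8%. With voom the median was 0.11 against HMD. Mt1, Mt2, Atox1 and Slc30a1 stayed lower with an adjusted p under 0.05 in both comparisons under all 18 alternatives. Their log2 fold changes against HMD under the alternatives that keep all libraries ran from -1.14 to -0.72 for Mt1, from -2.54 to -2.05 for Mt2, from -2.25 to -2.001 for Atox1 and from -0.79 to -0.58 for Slc30a1.

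**Figure D4:**
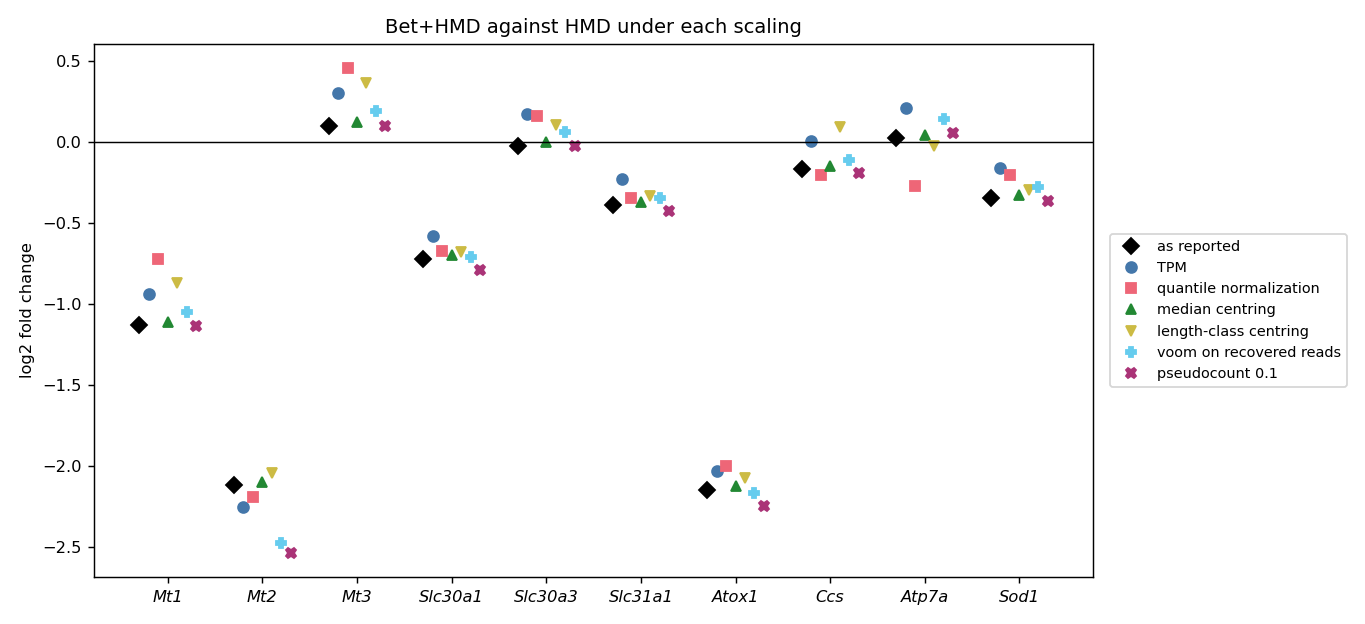
Log2 fold change in Bet+HMD against HMD (vertical axis) of the 10 genes as reported and under 6 other scalings or transformations. Mt1, Mt2, Atox1 and Slc30a1 stay below zero under each, while Slc30a3, Ccs and Atp7a lie on both sides of it.

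Markers of neurons, oligodendrocytes and other cells had summed FPKM above 0 in every library, and each listed gene was detected in every group. The summed FPKM of 8 astrocyte markers, the cells that make much of the Mt1 and Mt2 of brain, was 498 to 668 in Con, 557 to 699 in HMD and 582 to 614 in Bet+HMD, but Slc1a2, a glutamate transporter, made up much of that sum (mean 354 FPKM in Bet+HMD) and single markers differed. Gfap, the astrocyte filament protein, was 65.998 to 84.4 FPKM in Con, 79.7 to 84.3 in HMD and 50.5 to 52.5 in Bet+HMD, and Gja1, a gap junction protein, was 24.3 to 30.3, 25.7 to 29.8 and 19.4 to 19.998, both lowest in Bet+HMD without overlap. Gjb6, another gap junction protein, was 24.6 to 37.0, 41.8 to 48.8 and 23.9 to 27.2, without overlap against HMD. The Bet+HMD libraries overlapped Con or HMD for the other 5 astrocyte markers. For 4 dentate gyrus markers, the region that holds the mossy fibre neurons, it was 40.2 to 52.4, 41.4 to 54.0 and 42.2 to 42.8. Endothelial markers, 6 genes, ran from 59.6 to 68.1 in Con, 55.9 to 62.4 in HMD and 47.1 to 49.7 in Bet+HMD, and 6 microglial markers from 113 to 125, 95.1 to 115 and 86.1 to 89.5. Markers of pyramidal neurons, 6 genes, gave 214 to 226, 167 to 196 and 151 to 154. Sums of 8 thalamus markers were 14.2 to 23.1 in Con, 35.3 to 98.9 in HMD and 26.8 to 27.2 in Bet+HMD, and those of 6 choroid plexus markers 771 to 3207, 868 to 2574 and 937 to 1211. Blood markers, 5 genes, gave 99.8 to 148, 149 to 233 and 72.2 to 122, and 6 striatal markers 13.2 to 16.01, 15.6 to 20.5 and 19.4 to 21.7. Thalamus, blood and pyramidal sums did not overlap between Con and HMD, the last being lower in HMD. Endothelial, microglial and pyramidal sums were lowest in Bet+HMD without overlap, but single markers differed. Cldn5 (endothelial), Csf1r (microglial), Fibcd1 and Bok (pyramidal) were lowest there without overlap. Endothelial Flt1 was highest there, at 7.38 to 7.85 FPKM against 6.48 to 7.03 in Con and 5.75 to 7.33 in HMD. Pyramidal Grik4 was above HMD (8.15 to 8.42 against 6.89 to 8.04) and overlapped Con. Microglial Cx3cr1 and C1qa overlapped. The part of these cell types in the member values was not tested.

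A list of 45 further zinc and copper genes, listed by name for their function, were read in the same fits. For HMD against Con none of the 33 tested passed, and 1 had an unadjusted p under 0.05. The smallest p-values belonged to Slc31a2, a relative of the copper importer, with a log2 fold change of -0.33 (SE 0.129), and Cuta, with -0.28 (SE 0.145). In Bet+HMD against HMD, 5 of 33 rose and 12 fell, with a median of -0.17, beside 22.8% higher and 25.5% lower of all genes. In Bet+HMD against Con, 3 of 34 rose and 8 fell, with a median of -0.15, beside 19.4% higher and 20.4% lower. Genes called in either direction were 17 of 33 against HMD and 11 of 34 against Con, beside 48.3% and 39.7% of all genes. In both comparisons more listed genes fell than rose, but this depended on the scaling. With TPM, falls did not outnumber rises among the 12 called against HMD or the 7 called against Con. Against Con they also did not with the replicate block or without Bet+HMD replicate 2 or 3. The list medians lay below those of all genes, -0.025 against HMD and -0.039 against Con. Over all genes with a mean of at least 5 FPKM the medians were -0.14 and -0.13, near those of the list. The lean of the list was not tested. Mtf1, which encodes the zinc-sensing activator, did not pass in any comparison, with -0.021 in HMD against Con, -0.016 in Bet+HMD against HMD and -0.032 in Bet+HMD against Con. Mt4, the metallothionein of stratified epithelia, had no read in any library.

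Among zinc importers and exporters the directions were mixed. Slc39a2, a zinc importer, rose most, from 0.114 to 0.481 FPKM in HMD and 0.286 to 0.449 in Con to 3.56 to 4.50 in Bet+HMD, with log2 fold changes of 1.96 and 1.83 against HMD and Con. Adding 1 to FPKM understates the change of so low a gene, and voom gave 4.15 and 3.45, and TPM 3.15 and 2.86. It overlaps Mettl17 on the same strand, so reads of the 2 genes may not be separated. Slc39a13, a zinc transporter of the secretory pathway, rose by 0.67 against HMD and 0.65 against Con and overlaps Psmc3 on the other strand. Slc39a11 fell by 0.77 and 0.78, from means of 5.73 FPKM in HMD and in Con to 2.93 in Bet+HMD. Tmem163, a zinc transporter of synaptic vesicles, fell by 0.81 against HMD and by 0.46 against Con. The first call was lost under 3 of 17 alternatives (adjusted p 0.0526 to 0.0624), among them leaving out Bet+HMD replicate 2 or 3. The second was lost under 9 of 17 (adjusted p 0.0566 to 0.0966), among them leaving out Con replicate 1 or 3 or Bet+HMD replicate 2 or 3. Slc39a6 fell against Con by 0.56, from a mean of 20.4 to 13.4 FPKM, a call lost without Bet+HMD replicate 3 (adjusted p = 0.0525).

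Of the copper genes on that list, Chchd7, a small protein of the mitochondrial intermembrane space, rose by 0.79 against HMD and 0.85 against Con. Slc31a2 rose by 0.52 against HMD, from a mean of 3.31 to 5.21 FPKM. Cuta fell by 0.71 against Con, from 35.2 to 21.0 FPKM. A pair of secreted copper enzymes was lower against HMD, Sod3, the extracellular superoxide dismutase, by 0.66 and Pam, which amidates neuropeptides, by 0.51.

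**Figure D5:**
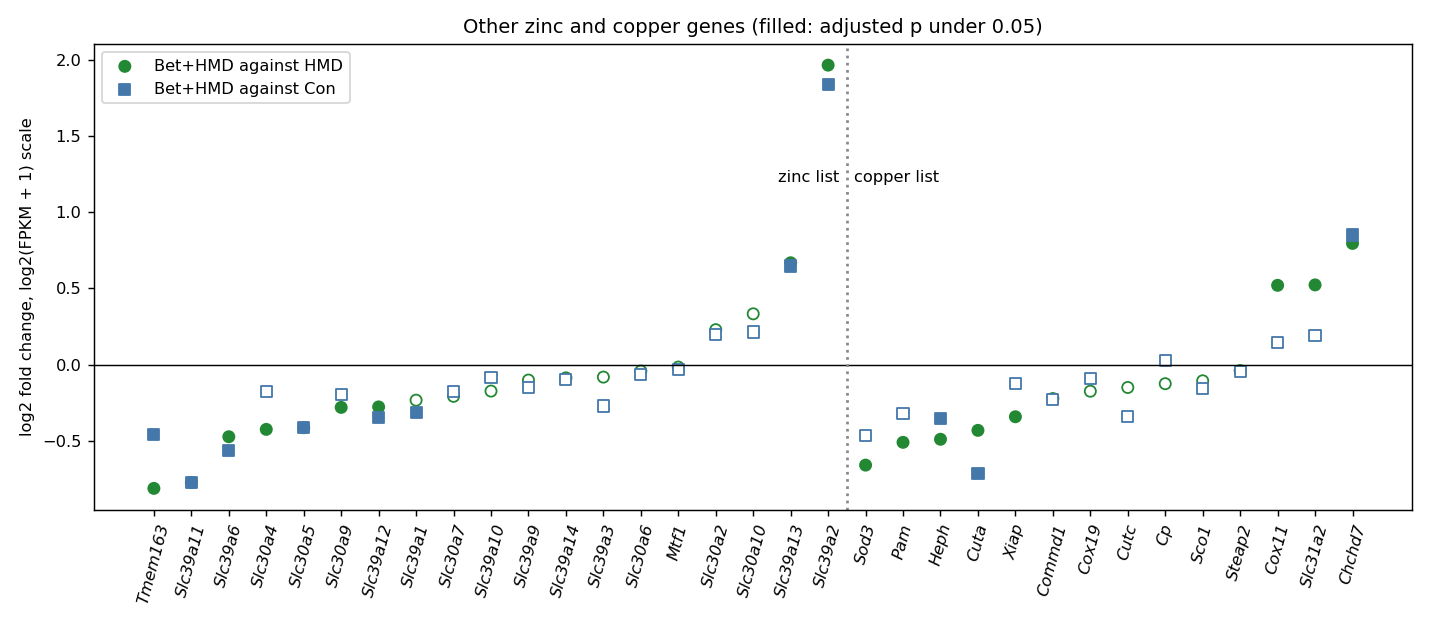
Log2 fold change of the tested genes of the further zinc and copper list in Bet+HMD against HMD and against Con, with filled points at adjusted p under 0.05. Slc39a2 stands highest at 1.96 and 1.83, and most other points lie between -0.81 and 0.85.

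Genes whose levels ran most alongside Mt1 and Mt2 were read, as a description, from the Pearson correlation of log2(FPKM + 1) with the mean of both. The libraries come from different groups, so differences between groups and spread within them are mixed. Over the 6 libraries of the earlier table the closest genes were Dnm3 (0.996), Prune2 (0.993), Kcnc2 (0.990), Plekha6 (0.988) and Ak3 (0.987). Over the 9 libraries of the later table they were Bub3 (0.990), Prelid1 (0.988), Slc35a4 (0.988), Slc25a39 (0.987) and Tmem176b (0.986), a wholly different set. Of the members, Slc30a1 gave 0.903 over 6 and 0.921 over 9 libraries, whereas Atox1 gave -0.17 over 6 and 0.946 over 9. The Bet+HMD libraries, lowest in Atox1, Mt1 and Mt2, are among the 9 only. For Slc30a3 the closest genes were Spns1 (0.981), Diaph1 (0.980), Trim28 (0.978), Dhx32 (0.972) and Dcp1a (0.971) over 6 libraries, and Pianp (0.959), Spns1 (0.927), Dalrd3 (0.918), Bhlhe40 (0.911) and Dcp1a (0.910) over 9.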

How the data were processed

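The labels place 9 hippocampal libraries in 3 groups of 3. Per the submitters' processing notes, the authors aligned reads to mm10 with HISAT2 2.1.0 and counted them with featureCounts 1.5.0-p3, and the study's methods give other versions and an rRNA-depleted, stranded, paired-end library. They deposited FPKM per gene, with gene length and coordinates, in 2 tables, and no column of per-sample values was left unmapped. The control columns of both tables carry a prefix that is not in the labels and were taken as Con, the one group that no other prefix matches. From FPKM, gene length and library size, 100% of values came out as whole reads (tolerance 0.01), which gave the depth. Log2(FPKM + 1) was fitted with limma 3.58.1 in R 4.3.3, with an intensity trend, over genes with a mean of at least 1 FPKM, and p was adjusted by Benjamini-Hochberg over all of them. The code was tested on simulated data.

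Members and lists were chosen with earlier results of these data known. All 10 members were named. Of the 45 further genes, up to 4 rises and 4 falls per comparison were named, or the 2 smallest p-values, and for likeness the 5 highest correlations. Alternatives covered scaling, pseudocount, filters, gene length, moderation, a fit of all groups, voom, the replicate block, the other table and leaving out each library. Replicates of a group differed beyond counting noise. On reads per gene, chi-square per degree of freedom was 3.10 to 4.47 for pairs of Bet+HMD libraries. It was 12.8 to 46.4 for pairs within Con or HMD (later table), so the Bet+HMD libraries were closer to each other. Bet+HMD libraries also had more genes with a read, 25315 to 25663 against 20816 to 23272. Their FPKM sums were lower, 249135 to 258514 against 288439 to 307899. The cause was not tested. Intervals on reads were not given, and read counts carry counting error only.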

Additional observations from a re-analysis of the deposited data

How the results depend on the processing

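The number of members called was 0 in HMD against Con under all 19 alternatives, 4 to 7 in Bet+HMD against HMD (5 as reported) and 4 to 6 in Bet+HMD against Con (4 as reported). The further zinc and copper genes called against HMD (17) were 8 with a mean of at least 5 FPKM, a filter that also tests fewer genes, and 11 to 19 with 1 library left out, the lowest without Bet+HMD replicate 2. Those called against Con (11) were 5 with that filter, 7 with TPM, 6 with the replicate block, and 5 to 15 with 1 library left out (7, 6 and 5 without Bet+HMD replicates 1, 2 and 3); the causes were not tested. Over all genes, that filter gave 4166 calls against HMD in place of 6607 and 3260 against Con in place of 5422; leaving out Bet+HMD replicates 1, 2 and 3 gave 3424, 3347 and 3302 against Con. A fit of all 3 groups gave 9 for HMD against Con in place of 0.

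Directions turned only for members that did not pass, and the cause was not tested. In HMD against Con, Slc31a1 became 0.012 with TPM and 0.0026 with quantile normalization, and Atox1 became 0.012 with TPM, 0.022 with quantile normalization, 0.045 with length-class centring, without and with the block, and 0.0053 in the later table and in the fit of all groups. In Bet+HMD against HMD, Slc30a3 became 0.17 with TPM, 0.16 with quantile normalization, 0.064 with voom and 0.11 with length-class centring, without and with the block; Ccs became 0.0047 with TPM and 0.093 with length-class centring, without and with the block; and Atp7a became -0.27 with quantile normalization and -0.027 with length-class centring, without and with the block. With 1 library left out, HMD against Con ran from -0.25 to 0.14 for Slc31a1 (turning without Con replicate 2 or 3 or HMD replicate 2 or 3), from -0.15 to 0.067 for Atox1 (without Con replicate 2 or 3 or HMD replicate 1), and, turning without Con replicate 3, from -0.77 to 0.091 for Mt3 and from -0.0039 to 0.15 for Slc30a1. Likewise Bet+HMD against HMD ran from -0.16 to 0.15 for Slc30a3 (without HMD replicate 3 or Bet+HMD replicate 3) and from -0.091 to 0.21 for Atp7a (without HMD replicate 2 or 3 or Bet+HMD replicate 3), and Mt3 against Con from -0.76 to 0.15 (without Con replicate 3).

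Same-numbered replicates did not pair between Bet+HMD and the other groups, and were mixed between HMD and Con. The correlations of their deviations averaged 0.203 for HMD and Con, -0.0786 for Bet+HMD and HMD and -0.105 for Bet+HMD and Con. Of 6 libraries, 4, 1 and 0 correlated best with their own number. For HMD and Con the correlation was -0.055, 0.346 and 0.319 for replicates 1, 2 and 3, and its source was not tested. With the replicate block the calls over all genes were 0, 5615 and 3924. Mt2 rested on 12 to 30 reads in Bet+HMD, which limits the precision of its fold change.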

Other observations

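Besides metals, glucocorticoids are known to raise Mt1 and Mt2, so 5 classic glucocorticoid-induced genes were read in the same fits. They too were listed with earlier results of these data known, so their values are descriptions. Sgk1 was 23.95 to 29.3 FPKM in Con and 46.7 to 53.4 in HMD in the earlier table, with a log2 fold change of 0.89 (SE 0.120, limma adjusted p = 0.218). Fkbp5 was 6.84 to 7.44 and 11.1 to 11.4 FPKM, with 0.59 (SE 0.0946, adjusted p = 0.339). Neither passed the test. The HMD and Con libraries did not overlap for Sgk1, Fkbp5, Tsc22d3 and Zbtb16, as for 9.37% of all genes tested, and overlapped for Per1. Tsc22d3 gave 0.42 (SE 0.134), Zbtb16 0.27 (SE 0.106) and Per1 -0.035 (SE 0.163), with adjusted p from 0.980 to 0.990. In Bet+HMD against HMD, Fkbp5 fell by 1.13, Sgk1 by 0.90 and Tsc22d3 by 0.82, Per1 rose by 0.44, and Zbtb16 gave 0.09 (adjusted p = 0.315). Of all genes tested, 25.5% fell and 22.8% rose in that comparison. Against Con in the later table, Sgk1 overlapped (26.1 to 27.0 FPKM in Bet+HMD, 24.6 to 29.8 in Con). Fkbp5 and Tsc22d3 were lower and Per1 and Zbtb16 higher than in Con, without overlap, a pattern of 55.1% of all genes. How these genes relate to Mt1 and Mt2 was not tested.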
